A study of Mus musculus with 9 samples.

Results

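The mouse genes of the chemokines and of their receptors were described across 4 oviduct tumors and 5 oviducts. They were chosen by symbol: every gene named Ccl, Cxcl, Ccr or Cxcr with a number, plus Cx3cl1, Cx3cr1, Xcl1, Xcr1 and Ackr1, Ackr2, Ackr3 and Ackr4. This gave 54 of the 19435 genes in the deposited table, 32 of them ligands and 22 receptors. Poly-A RNA was sequenced from primary tumors of the oviduct of genotype Dicer1ko/D1693N (tumors 1 to 4), from oviducts of genotype Dicer1+/D1693N (oviducts 1 to 3) and from oviducts of genotype Dicer1+/+ (oviducts 4 and 5). The D1693N allele of Dicer1, the gene of the RNase that cuts miRNA precursors, was thus carried by the tumors and by the Dicer1+/D1693N oviducts. No group was treated. The age and strain of the mice, the cells in which Dicer1 was deleted and whether libraries came from separate animals are not given in the sources used here, so p-values measure the spread between these samples only. Tumors and oviducts are whole tissues, in which fewer cells of a type and less RNA per cell cannot be told apart.

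Chemokines are small secreted proteins that guide leukocytes along a gradient and act through receptors coupled to G proteins. They are classed by the spacing of their first cysteines into CC, CXC, XC and CX3C chemokines, and the receptors are named after the class they bind. CXC ligands that carry the residues Glu-Leu-Arg before the first cysteine, called the ELR motif, act on Cxcr2 and draw neutrophils, whereas the other CXC ligands act on lymphocytes, monocytes or progenitor cells. Atypical receptors bind chemokines without G protein signalling and remove or relocate them. In the female reproductive tract these proteins take part in bringing neutrophils, macrophages and lymphocytes into the tissue.

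Levels are given as normalized counts, that is reads divided by the size factor of the library. Changes are given on the log2 scale of the deposited table, as tumor minus oviduct ± SE, a scale that compresses changes at low counts. A gene was called higher or lower at a Benjamini-Hochberg adjusted p under 0.05 over all genes in limma with a log2 change of at least 1 in size. The tumor libraries held 8732190 to 11267144 reads and the oviduct libraries 8504993 to 12526078. Dicer1 itself had 1282.9, 741.5, 1379.2 and 576.3 normalized counts in tumors 1 to 4, against 903.9 to 1236.8 in the oviducts; the deleted part of the gene is not given, so this level does not check the labels. Tumors resembled each other less than oviducts did, with correlations across genes between library pairs of 0.864 to 0.929 among tumors and 0.968 to 0.986 among oviducts. Tumor 1 stood apart by hemoglobin (Hbb-bs at 32048.4 normalized counts, at most 1254.8 in any other library) and tumor 4 by the fat cell gene Adipoq (5427.6, against 0.0 in the other tumors and 224.4 to 1703.7 in oviducts). Of 10 markers of oviduct epithelium 4 were called lower in tumors (Foxj1, Dnah5, Ovgp1 and Cdh1) and 1 higher (Wfdc2). Among 10 markers of mast cells and eosinophils, 5 were called lower (Cpa3, Cma1, Mcpt4, Tpsb2 and Kit) and Siglecf higher. Endothelial markers were called higher for 7 of 10 and lymphatic endothelial markers lower for 1 of 6 (Pdpn).

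In tumors, 12 of the 54 genes were called higher and 1 lower. The genes called higher were 3 ELR ligands (Cxcl5, Cxcl2 and Cxcl3), 3 other CXC ligands (Cxcl14, Cxcl17 and Cxcl12), 3 CC ligands (Ccl20, Ccl4 and Ccl3) and the receptors Cxcr2, Ccr1 and Cxcr4. The scavenger receptor gene Ackr4 was called lower. As a share, 22.2% of the genes were called higher, against 6.53% of all genes, and 1.85% were called lower, against 12.1% of all genes. With the adjusted p alone, 15 of the 54 genes passed, against 31.1% of all genes. The median log2 change was 0.53 over the 54 genes and -0.048 over all genes, and the change was above 0 in 36 of the 54. In 6 of them every tumor lay above every oviduct, against 10.8% of all genes, and in 1 every tumor lay below, against 16.8% of all genes. The count of 12 depended on single libraries: it was 6 without oviduct 1, 7 without oviduct 2, 5 or tumor 2 or 4, and 19 without tumor 3. Without tumor 3, the genes called in addition included Ccl2, Ccl6, Ccl7, Ccl8, Ccl9, Ccl28, Cxcl1 and Cxcl16, and Ccl20 and Cxcl12 were not. The count of 1 lower was 0 without tumor 1, 3 without tumor 2 and 2 without tumor 3 or 4. The 12 genes called higher were 6 without tumors 1 and 4, which stood apart, and 7 with limma-voom on the recovered reads. Limma-voom called 1023 of all genes higher and 3253 lower. With libraries left out, counts over all genes were not recorded, so a shift of the family cannot be told from a shift of the whole table.

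**Figure D1:**
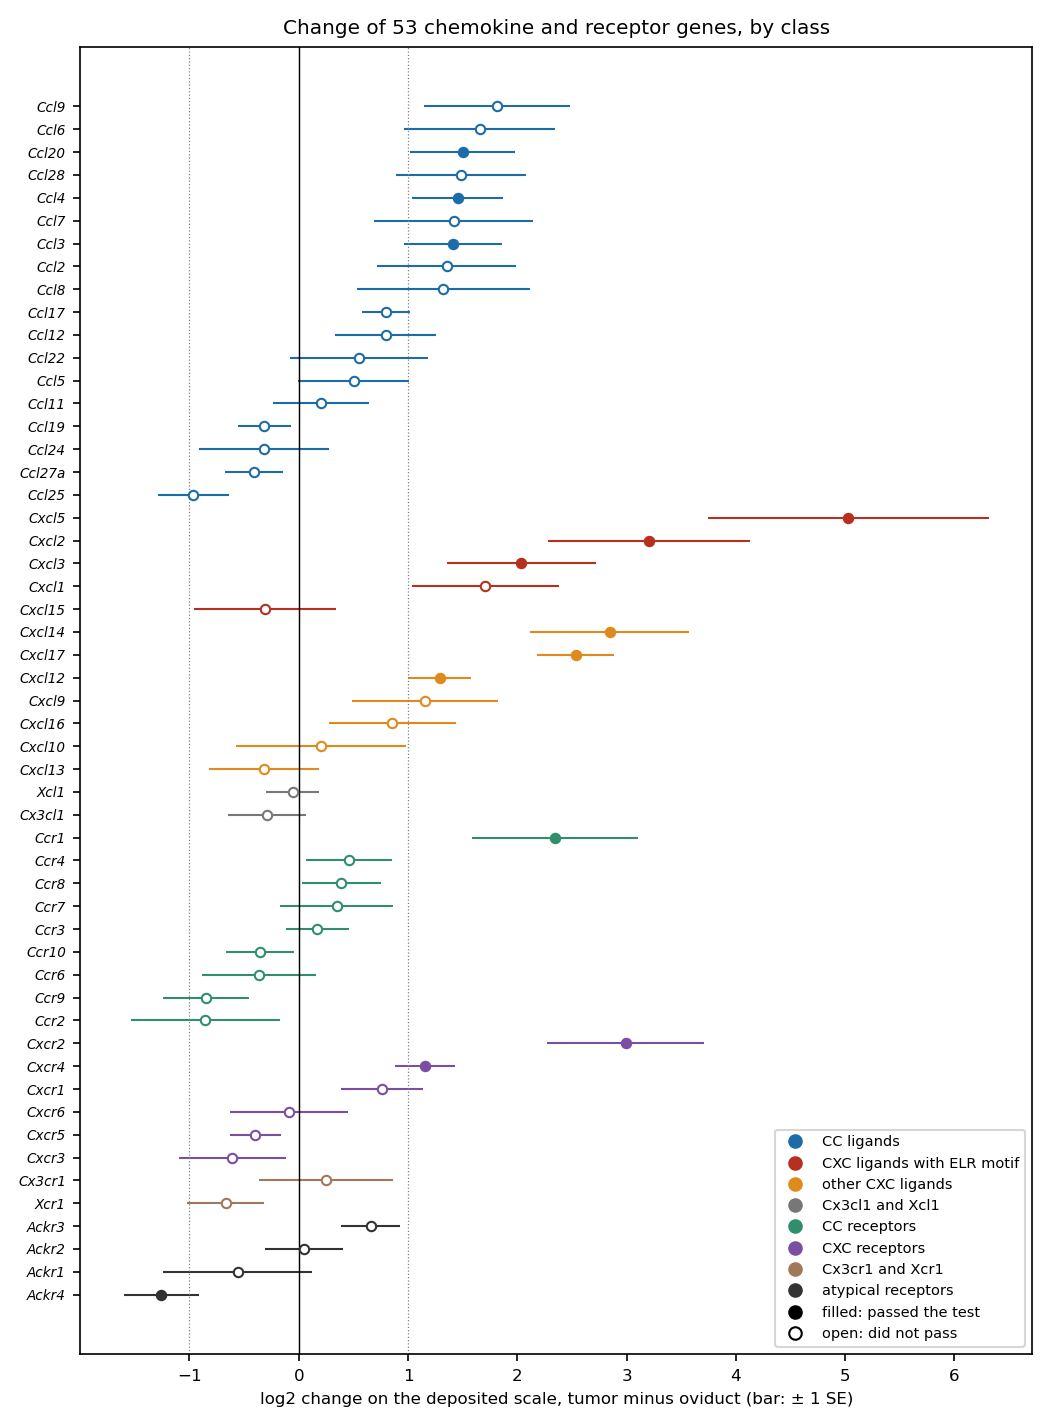
Log2 change on the deposited scale (tumor minus oviduct, horizontal axis, bars ± 1 SE) of 53 of the genes, ordered by class, with filled points for the genes that passed the test. The ELR ligand Cxcl5 lies farthest right at 5.03 and Ackr4 farthest left at -1.26.

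The ELR ligands Cxcl5 and Cxcl2 had the largest changes of the family. The 5 genes of this class lie in 1 stretch of chromosome 5 in the order Cxcl5, Cxcl3, Cxcl15, Cxcl1 and Cxcl2, from 90759360 to 90905938 in GRCm38, and they recruit neutrophils in mice, Cxcl15 mainly in the lung. Cxcl5, a neutrophil attractant made by epithelium, had 103.9, 3644.1, 18.0 and 4572.6 normalized counts in tumors 1 to 4, against 4.5, 1.5, 0.0, 1.6 and 4.5 in oviducts 1 to 5. Every tumor lay above every oviduct, and tumors 2 and 4 were far above tumors 1 and 3. The log2 change was 5.03 ± 1.29 (limma, adjusted p = 0.0137), and with limma-voom the adjusted p was 0.178.

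Cxcl2, an attractant that macrophages release early in inflammation, had 189.4, 357.7, 0.0 and 355.5 normalized counts in the tumors and 0.0, 0.0, 3.0, 3.1 and 2.2 in the oviducts. Tumors 1, 2 and 4 were above all oviducts, and tumor 3 had no read. Its log2 change was 3.20 ± 0.92 (limma, adjusted p = 0.0234), and the call was lost without oviduct 1 or 2 or tumor 1 or 2 (the adjusted p then reached 0.0678), and limma-voom gave 0.143. Cxcl3, a close relative, had 14.6, 59.0, 0.0 and 177.7 in the tumors and 0.0, 0.0, 0.0, 2.4 and 0.0 in the oviducts. Tumors 1, 2 and 4 were again above all oviducts while tumor 3 was at 0. Cxcl3 changed by 2.04 ± 0.68 (limma, adjusted p = 0.0437), lost with any 1 library left out other than tumor 3 (up to 0.108). Cxcl1, which did not pass the test (1.71 ± 0.67, adjusted p = 0.0781) but was called with quantile normalization, array weights or without tumor 1 or 3, had 10.7, 197.6, 4.5 and 145.1 in the tumors and 1.1 to 10 in the oviducts. Cxcl15 had 0.0 to 74.3 in the tumors and 2.2 to 56.1 in the oviducts, with a log2 change of -0.31 ± 0.65.

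The promoters of Cxcl1, Cxcl2, Cxcl3 and Ccl20 are shown because they hold a word of the kind that NF-kB, the transcription factor of many inflammatory genes, is known to bind. The word searched was a run of 3 G, any 2 bases, 3 T and 2 C, on both strands, in the 250 bases before and 50 after each start, and no other word was searched. It was found in 14.6% of the 41 genes of this family with a promoter in RefSeq (6 of 41: also Ccl9 and Ccr3), and in 1.89% of all 27025 genes. It was in 3 of the 9 genes called higher that had a promoter and in 3 of the other 32. Cxcl5 is among the genes without a promoter there, so it was not searched. A match is a description of these letters and was not measured as a bound site. The sequences are from RefSeq (GRCm38.p6, plus strand, 5′ to 3′) with the matches in capitals, at chr5:90890995-90891294, chr5:90903649-90903948, chr5:90785851-90786150 and chr1:83116516-83116815 in the order printed.
Cxcl1: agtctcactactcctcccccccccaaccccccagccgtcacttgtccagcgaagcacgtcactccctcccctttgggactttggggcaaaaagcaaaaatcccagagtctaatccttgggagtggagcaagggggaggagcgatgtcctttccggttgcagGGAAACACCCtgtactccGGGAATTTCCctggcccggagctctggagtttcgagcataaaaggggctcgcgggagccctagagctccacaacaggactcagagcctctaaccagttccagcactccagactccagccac
Cxcl2: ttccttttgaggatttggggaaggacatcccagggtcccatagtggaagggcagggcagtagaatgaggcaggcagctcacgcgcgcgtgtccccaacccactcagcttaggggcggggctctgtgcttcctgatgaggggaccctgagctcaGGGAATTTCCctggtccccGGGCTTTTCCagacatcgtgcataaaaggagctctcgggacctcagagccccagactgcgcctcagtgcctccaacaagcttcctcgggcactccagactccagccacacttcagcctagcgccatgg
Cxcl3: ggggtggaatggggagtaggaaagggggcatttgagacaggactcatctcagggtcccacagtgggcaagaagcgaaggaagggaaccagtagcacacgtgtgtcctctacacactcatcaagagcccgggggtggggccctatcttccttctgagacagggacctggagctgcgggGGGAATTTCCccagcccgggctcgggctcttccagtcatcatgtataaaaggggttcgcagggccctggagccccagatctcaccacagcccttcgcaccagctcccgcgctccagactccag
Ccl20: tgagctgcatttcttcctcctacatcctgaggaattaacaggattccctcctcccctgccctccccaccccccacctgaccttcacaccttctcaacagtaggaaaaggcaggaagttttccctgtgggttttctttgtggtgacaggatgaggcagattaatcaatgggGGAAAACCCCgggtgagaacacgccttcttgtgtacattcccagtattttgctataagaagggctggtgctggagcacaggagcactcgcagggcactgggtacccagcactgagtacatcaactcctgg

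Cxcr2, the receptor of the ELR ligands on neutrophils (chromosome 1, 74153989 to 74161246), had 42.7, 350.9, 5.6 and 214.5 normalized counts in the tumors and 0.0, 3.7, 2.0, 0.0 and 0.0 in the oviducts. Every tumor was above every oviduct, tumors 2 and 4 most. Its log2 change was 2.99 ± 0.71 (limma, adjusted p = 0.00989), and the call held with each library left out and in every other alternative run. The related receptor Cxcr1 had 0.0, 22.7, 1.1 and 11.6 in the tumors and 0.0 to 1.6 in the oviducts, and did not pass the test (0.76 ± 0.37, adjusted p = 0.149).

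Of 10 neutrophil markers 4 were called higher (S100a8, S100a9, Csf3r and Retnlg) and 0 lower. At an unadjusted p under 0.05 in limma 0 were lower. Limma-voom, at the thresholds of a call, gave 1 higher and 0 lower. S100a8, a neutrophil calcium-binding protein, had 409.8, 2962.7, 6.8 and 3645.0 normalized counts in tumors 1 to 4, against 1.1 to 4.5 in the oviducts. Ly6g, Mpo, Elane, Ngp and Retnlg were at 0.0 in tumor 3. The granule genes Mpo (320.8), Elane (116.7), Camp (657.3) and Ngp (1329.3) were high in tumor 4 and did not exceed 60.2 elsewhere. The 4 called markers were each higher in tumors 2 and 4 than in tumors 1 and 3, as were Cxcl5 and Cxcr2. The summed list was 40742.0, 96992.8, 4720.8 and 105712.1 in tumors 1 to 4 and 5687.2 to 25171.9 in the oviducts. Most of it was Ltf, at 39350.4, 88000.2, 4585.7 and 94984.2 in the tumors and 5651.5 to 25109.0 in the oviducts. The sum thus mainly follows Ltf, also in placing tumor 3 below every oviduct. Without Ltf, tumor 3 lay above every oviduct. The part of neutrophils in the chemokine result was not tested.

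**Figure D2:**
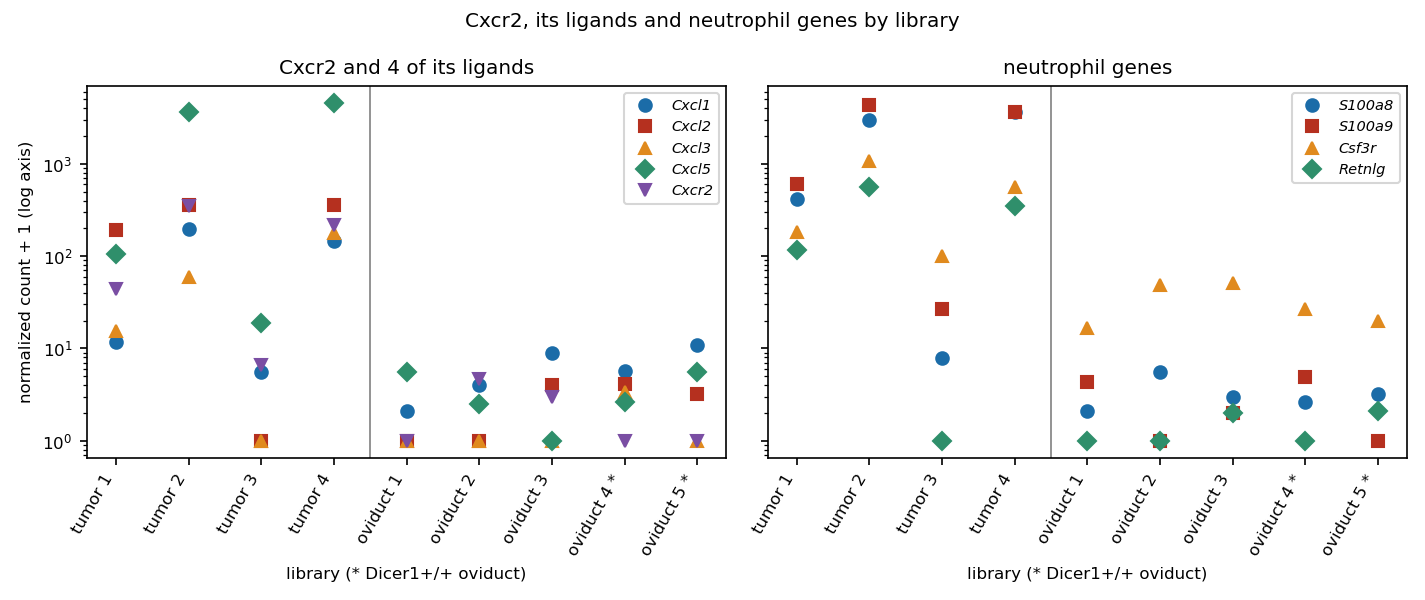
Normalized count + 1 (log axis) in each library for Cxcl1, Cxcl2, Cxcl3, Cxcl5 and Cxcr2 (left) and for 4 neutrophil genes (right), tumors left of the oviducts. In the left panel tumor 3 had the lowest tumor value of each gene, and tumors 2 and 4 the highest.

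Of the other CXC ligands 3 of 7 were called higher. As a level per kilobase of exon, Cxcl14 was the highest of the family in tumors, at 2185 normalized counts per kilobase in tumors and 194.9 in oviducts. Ccl8 came next in tumors (1715 in tumors, 358.0 in oviducts), then Cxcl5 (1119 and 1.3), Cxcl17 (661.2 and 79.2), Ccl6 (626.7 and 127.7) and Cxcl12 (527.7 and 198.0). Ccl8 was the highest in oviducts. The spread between tumors overlaps for these neighbours in the order. Cxcl14, an epithelial and stromal chemokine (chromosome 13, 56288643 to 56296551), had 7644.8, 3669.0, 4303.1 and 351.3 in tumors 1 to 4, against 315.9, 390.8, 285.6, 228.7 and 559.3 in the oviducts. Tumors 1, 2 and 3 were far above every oviduct, and tumor 4 lay among the oviducts. It changed by 2.85 ± 0.73 (limma, adjusted p = 0.0136), an 11.2-fold difference of means, and the call held in every alternative run.

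Cxcl17, a mucosal chemokine (chromosome 7, 25400053 to 25412886), had 306.9, 813.1, 219.5 and 673.1 normalized counts in the tumors, against 54.7, 65.1, 47.8, 74.7 and 59.2 in the oviducts. All 4 tumors were above all 5 oviducts. Its change was 2.53 ± 0.35 (limma, adjusted p = 0.000398), the smallest p of the 54 genes, with a range of 2.25 to 2.85 over single libraries left out. Cxcl12, the ligand of Cxcr4 made mainly by stromal cells (chromosome 6, 117168535 to 117181367), had 2640.5, 3202.3, 7765.1 and 3651.3 in the tumors and 1806.1, 1671.0, 1620.9, 1853.5 and 1143.2 in the oviducts. The tumors did not overlap the oviducts, and tumor 3 was the highest of them. Cxcl12 changed by 1.29 ± 0.29 (limma, adjusted p = 0.00711), and the value was under 1 without tumor 3 (0.97, adjusted p = 0.00377). Fibroblast markers were called higher for 4 of 10, and their sum was 90915.4 to 106441.7 in the tumors and 22355.7 to 37761.1 in the oviducts. Most of the tumor sum was Col1a1 and Col1a2, and the other 8 markers summed to 13189.7 to 25585.5 in the tumors and 10942.3 to 19417.0 in the oviducts, which overlap. None of the 10 was called lower in limma, with 1 at an unadjusted p under 0.05, and limma-voom called 4 higher and 1 lower. Their part in the change of Cxcl12 was not tested.

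Cxcl9, an interferon-induced ligand of Cxcr3, had 23.3, 285.0, 34.9 and 92.5 normalized counts in tumors 1 to 4, against 6.7, 44.9, 97.5, 3.9 and 21.2 in oviducts 1 to 5. The groups overlapped, and the change did not pass the test (1.15 ± 0.67, adjusted p = 0.218). Cxcl16, the ligand of Cxcr6, had 573.9, 1453.5, 211.7 and 2774.3 in the tumors and 477.8, 573.5, 512.4, 407.2 and 353.9 in the oviducts. Tumor 3 was below every oviduct and the other tumors were above them, tumor 1 by less than 1 count, with a change of 0.86 ± 0.58 (adjusted p = 0.294). Cxcl16 shares exon bases with Zmynd15 on the other strand, and whether the counts used strand is not given. Cxcl10 and Cxcl13 had 0.0 to 283.9 and 15.5 to 99.9 in the tumors and 19.0 to 40.4 and 13.4 to 105.5 in the oviducts.

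Among the 18 CC ligands 3 were called higher and the median log2 change was 1.06. Ccl3, a macrophage chemokine, had 49.5, 104.5, 9.0 and 110.4 normalized counts in tumors 1 to 4, against 7.8, 11.2, 12.9, 16.5 and 5.6 in the oviducts. Tumors 1, 2 and 4 were above all oviducts and tumor 3 was among them. Its log2 change was 1.41 ± 0.45 (limma, adjusted p = 0.0348), lost with any 1 library left out other than tumor 3 (up to 0.0939).

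Ccl4, its neighbour on chromosome 11, had 42.7, 137.4, 14.6 and 32.6 in the tumors and 3.3, 9.0, 11.9, 11 and 2.2 in the oviducts. All tumors were above all oviducts. The log2 change was 1.45 ± 0.42 (limma, adjusted p = 0.0236), lost without oviduct 1 or 5 (0.0568 and 0.0560) and without tumors 1 and 4 (0.0503). Ccl20, which attracts Ccr6-bearing cells, had 0.0, 53.4, 11.3 and 33.7 in the tumors, and 2.0 in oviduct 3 against 0.0 in the other oviducts. Tumors 2, 3 and 4 were above the oviducts and tumor 1 had no read. Its log2 change was 1.5 ± 0.48 (limma, adjusted p = 0.0373), lost without oviduct 1, 2, 4 or 5 or tumor 2, 3 or 4 (up to 0.095) and with limma-voom (0.0807).

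The other CC ligands with a mean of at least 100 normalized counts in tumors or oviducts did not pass the test. Ccl6, a macrophage chemokine of rodents, had 871.1, 1235.5, 105.8 and 2287.3 normalized counts in tumors 1 to 4, against 202.0, 210.4, 360.2, 235.0 and 138.4 in the oviducts. Its chromosome 11 neighbour Ccl9, which attracts Ccr1-bearing cells, had 354.5, 623.4, 50.7 and 1242.0 in the tumors and 61.4, 77.9, 109.5, 113.2 and 90.4 in the oviducts. In both genes tumors 1, 2 and 4 were above every oviduct and tumor 3 below every oviduct. The changes were 1.65 ± 0.69 for Ccl6 (limma, adjusted p = 0.0939) and 1.81 ± 0.67 for Ccl9 (limma, adjusted p = 0.0627).

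Ccl8, an attractant of monocytes and T cells, had 232.1, 1213.9, 67.6 and 1991.8 in the tumors and 126.1, 154.2, 326.4, 162.7 and 145.1 in the oviducts. Ccl7, a ligand of Ccr2, had 24.3, 208.9, 3.4 and 224.0 in the tumors and 4.5, 7.5, 17.9, 10.2 and 36.8 in the oviducts. Tumors 2 and 4 were above every oviduct for both genes, tumor 1 lay within the oviducts and tumor 3 below them, with changes of 1.32 ± 0.79 (adjusted p = 0.229) for Ccl8 and 1.42 ± 0.73 (adjusted p = 0.167) for Ccl7. Ccl2, the main ligand of Ccr2, had 16.5, 156.7, 5.6 and 196.7 in the tumors and 8.0 to 16.7 in the oviducts. Tumors 2 and 4 were again high, tumor 1 lay within the oviducts and tumor 3 below them (1.36 ± 0.64, limma, adjusted p = 0.133). Ccl28, a mucosal chemokine, had 398.2, 2021.3, 137.4 and 779.3 in the tumors and 174.1, 265.8, 125.4, 169.8 and 212.1 in the oviducts. Tumors 1, 2 and 4 were above every oviduct and tumor 3 among them, with a change of 1.48 ± 0.59 (adjusted p = 0.0818).

 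Ccl25, an attractant of gut and thymic lymphocytes, was at 33.0, 27.3, 117.1 and 30.5 in tumors 1 to 4, against 88.2 to 120.4 in oviducts, with -0.96 ± 0.33 (0.0460), under the size needed for a call. It shares exon bases with Elavl1, so its reads are uncertain. Ccl17 passed the adjusted p but not the size (0.80 ± 0.22, 0.0204), with 7.4 to 21.4 in tumors and 1.1 to 6.0 in oviducts.

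The 28 genes that were neither called nor at a mean of 100 normalized counts in a group, Cxcl1, Ccl2, Cxcl10, Cxcl13, Cxcl15, Cxcr1 and Ccl17 among them, were called in no comparison. Their log2 changes ran between -0.85 and 1.71, with 14 above 0 and 14 below, and no library had more than 283.9 normalized counts of any. A mean under 10 in both groups was found in 7 of the 54 genes.

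**Figure D3:**
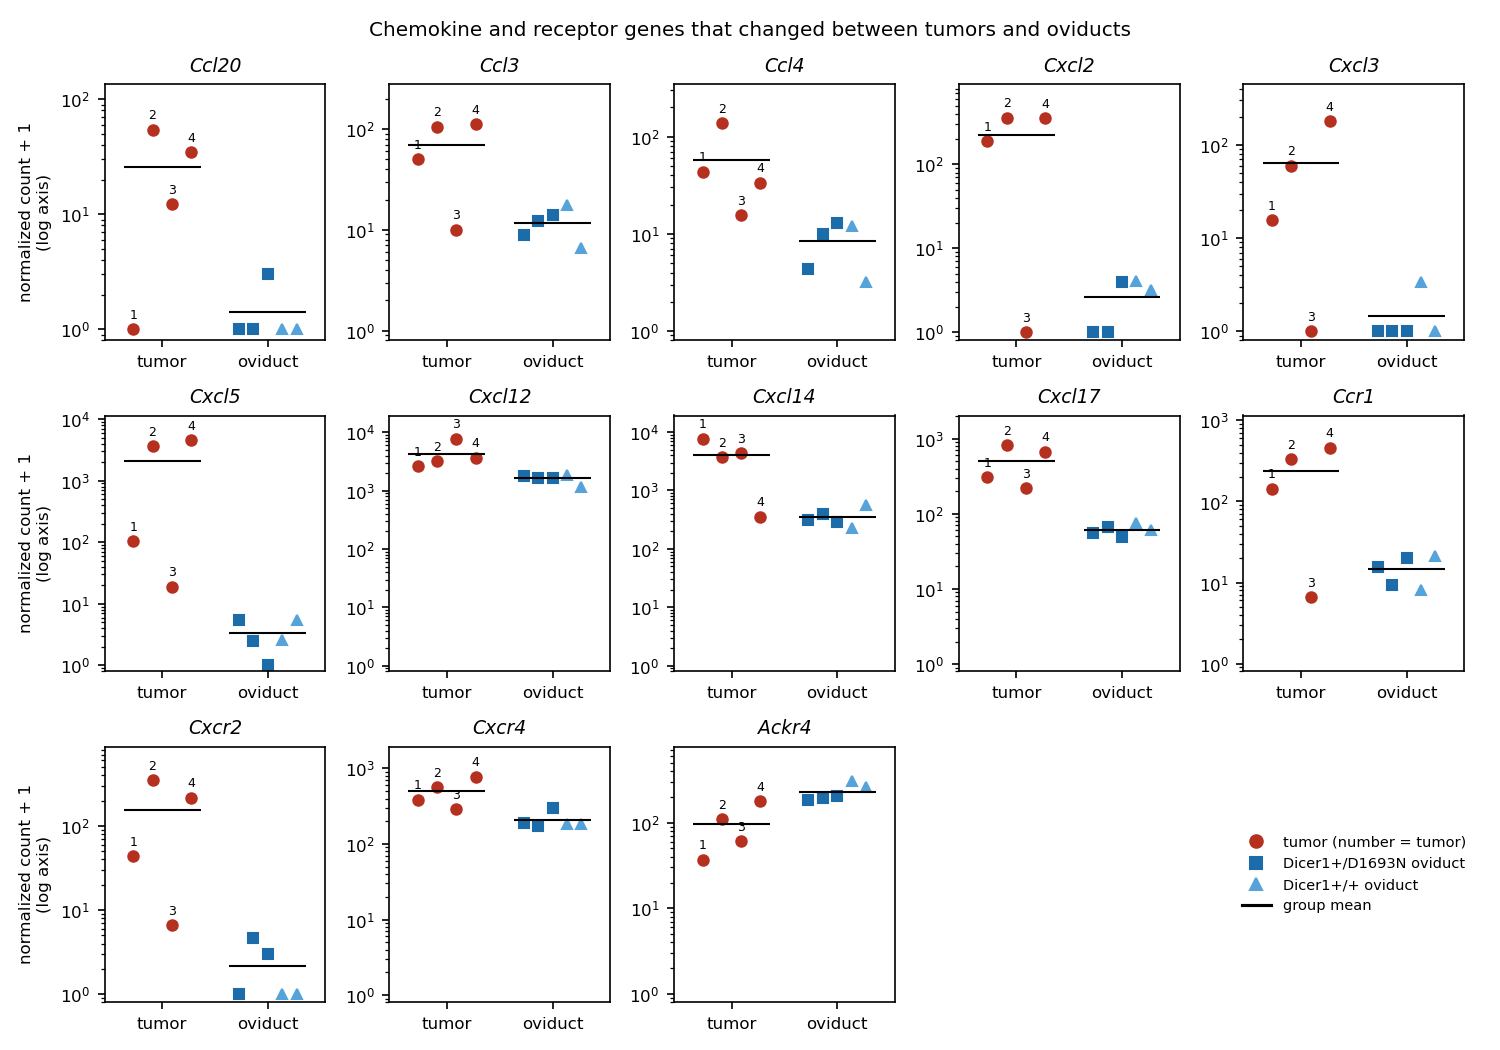
Normalized count + 1 (log axis) of each called gene in each library, with tumors (circles, numbered) left of Dicer1+/D1693N (squares) and Dicer1+/+ (triangles) oviducts and a line at each group mean. Cxcl17 separates the groups without overlap, while tumor 3 lies among the oviducts for Cxcl2 and Cxcl3 and tumor 4 for Cxcl14.

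Receptors on leukocytes varied by gene. Ccr1, a receptor of macrophages and neutrophils, had 142.8, 330.5, 5.6 and 459.6 normalized counts in tumors 1 to 4, against 14.5, 8.2, 18.9, 7.1 and 20.1 in the oviducts. Tumor 3 was below all oviducts and the other tumors far above them. The log2 change was 2.35 ± 0.76 (limma, adjusted p = 0.0384), lost with any 1 library left out other than tumor 3 (up to 0.104) and with limma-voom (0.144). Cxcr4, the receptor of Cxcl12 on many leukocytes, had 382.6, 563.2, 288.2 and 780.3 in the tumors and 186.4, 169.9, 296.5, 183.1 and 184.2 in the oviducts. Oviduct 3 lay above tumor 3 and every other tumor above every oviduct. Cxcr4 changed by 1.15 ± 0.28 (limma, adjusted p = 0.0101), and by 0.92 without tumor 4 (0.0158).

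Ccr2, the receptor of Ccl2 on monocytes, had 29.1, 339.5, 56.3 and 682.5 in the tumors and 256.7, 298.7, 301.5, 422.1 and 226.6 in the oviducts. Tumors 1 and 3 were below every oviduct and tumor 4 above (-0.85 ± 0.68, adjusted p = 0.375).

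Cx3cr1, a receptor of monocytes and resident macrophages, had 21.4, 417.9, 217.3 and 429.1 in the tumors and 158.5, 146.7, 196.0, 142.3 and 134.0 in the oviducts. Tumor 1 was below every oviduct and the other tumors above. The change of 0.25 ± 0.61 (limma, adjusted p = 0.793) was 1.04 without tumor 1, a call (0.0107), and -0.11 and -0.12 without tumors 2 and 4. Its ligand Cx3cl1, a membrane-bound chemokine of epithelium and endothelium, had 422.4, 647.3, 324.2 and 1324.0 in the tumors and 874.0, 897.6, 814.9, 652.4 and 475.6 in the oviducts. Tumor 4 was above every oviduct and tumors 1 and 3 below (-0.29 ± 0.36, adjusted p = 0.579). Among receptors known from lymphocytes, Cxcr3 was at 0.0 to 35.2 in tumors and 7.8 to 45.7 in oviducts, Ccr7 at 9.0 to 105.6 and 4.5 to 53.2, Ccr9, the receptor of Ccl25, at 0.0 to 22.7 and 8.6 to 30.8, Cxcr5 at 35.0 to 42.0 and 39.3 to 89.6, and Cxcr6 at 12.6 to 151.0 and 15.6 to 67.7. None of these 5 passed the test. Cx3cr1, Ccr9 and Cxcr5 share exon bases with other genes, so their reads are uncertain.

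Macrophage markers were called higher for 8 of 14 measured (for example Lyz2 2.71 ± 0.49 and Cd68 2.16 ± 0.43). Their sum was 20860.9, 34170.6, 7582.7 and 57085.8 in tumors 1 to 4 against 4460.2 to 6947.4 in the oviducts. Lyz2 alone gave 9786.1, 15627.8, 3548.7 and 27865.6 of it in tumors 1 to 4, and 1181.2 to 2577.2 in the oviducts. When Lyz2 was taken out, tumor 3 no longer exceeded every oviduct, whereas the other tumors still did. The part of macrophage markers in the changes of Ccr1, Ccl3 and Ccl4 was not tested. Of 16 T and NK cell markers 0 were called either way in limma, with 1 at an unadjusted p under 0.05. Limma-voom called 0 of them. The T cell sum was 360.3, 1486.5, 202.7 and 447.0 in the tumors and 180.8 to 772.2 in the oviducts. Of 10 dendritic cell markers 0 were called in limma, with 1 at an unadjusted p under 0.05, and limma-voom called 0.

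Among the 4 atypical receptors, Ackr4, which removes Ccl19, Ccl21 and Ccl25, had 35.9, 109.0, 59.7 and 175.6 normalized counts in tumors 1 to 4, against 181.9, 193.9, 205.0, 308.1 and 256.8 in the oviducts. All tumors were below all oviducts. Ackr4 changed by -1.26 ± 0.35 (limma, adjusted p = 0.0193), and by -0.96 without tumor 1 (0.0386). Ackr4 shares exon bases with Acad11 on the other strand, which itself averaged 279 in tumors and 524 in oviducts and was called lower (-1.07 ± 0.34, limma, adjusted p = 0.0345). The strand setting is not given, so reads in the shared bases may not have been told apart. Ackr3, the scavenger of Cxcl12, had 477.8, 361.1, 1039.2 and 476.4 in the tumors and 358.3, 323.4, 341.3, 263.3 and 406.4 in the oviducts. Tumors 1, 3 and 4 were above every oviduct and tumor 2 among them (0.66 ± 0.27, adjusted p = 0.0876). Ackr1 and Ackr2 had means of 40.0 and 20.9 in tumors and 34.6 and 18.6 in oviducts.

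Tumor 2 had the highest tumor value in 26 of the 54 genes and tumor 4 in 20, against 18.1% and 26.8% of the 17183 genes of the table without ties at the extremes. Tumor 3 was the lowest tumor in 29 genes, against 30.9% of those genes. Of the 12 genes called higher, tumor 3 was lowest in 9 and tumor 2 or 4 highest in 10. The exceptions were Cxcl12, highest in tumor 3, and Cxcl14, highest in tumor 1.

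**Figure D4:**
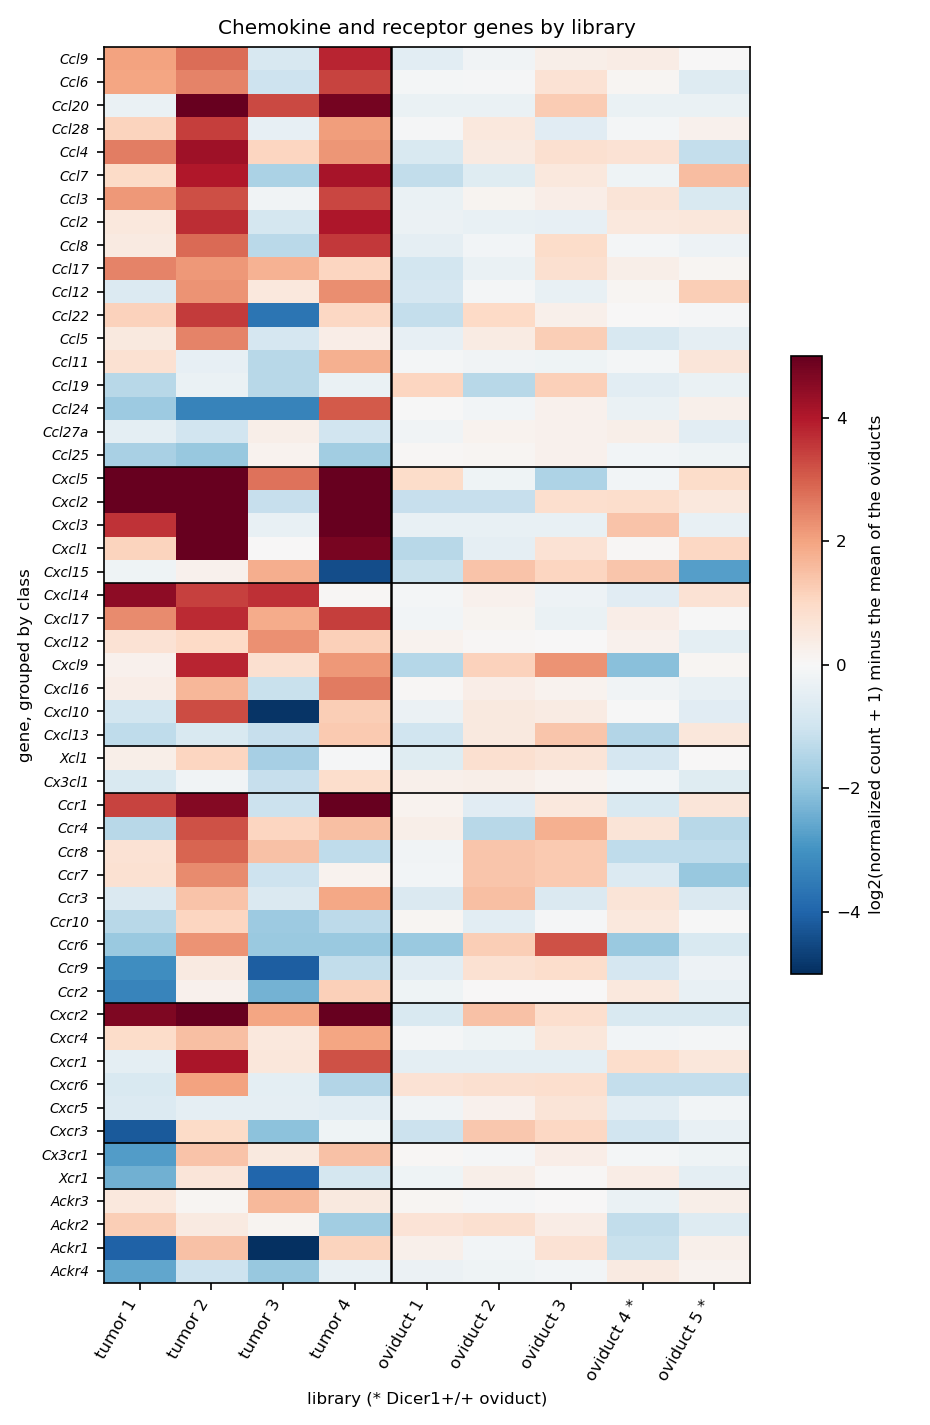
Level of 53 of the genes in each library as log2(normalized count + 1) minus the mean of the 5 oviducts, color limited to ±5, tumors left of the oviducts (* Dicer1+/+). Tumors 2 and 4 are red for Cxcl5, Cxcl2 and Cxcr2, and tumor 3 is pale for Cxcl2, Cxcl3 and Ccr1.

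The tumors were also set against each oviduct genotype in a 3-group model, in which the comparisons share the tumors. Against the Dicer1+/D1693N oviducts 6 genes were called higher (Cxcl5, Cxcr2, Cxcl14, Cxcl17, Cxcl12 and Cxcr4), against 5.17% of all genes, and 0 lower, against 11.4%. Limma-voom called 1 higher and 2 lower, and 20 genes had an unadjusted p under 0.05 in limma. Counts over all genes were not recorded for limma-voom here or for the unadjusted p, so neither can be set against the whole table. With the adjusted p alone 7 passed, against 23.7% of all genes. Against the Dicer1+/+ oviducts 4 were called higher (Cxcr2, Cxcl17, Cxcl12 and Cxcr4), against 4.07%, and 1 lower (Ackr4), against 9.74%. With the adjusted p alone 5 passed, against 16.5%. The log2 change of Cxcl17 was 2.61 ± 0.42 against the Dicer1+/D1693N oviducts and 2.41 ± 0.48 against the Dicer1+/+ oviducts, and that of Cxcr2 was 2.80 ± 0.85 and 3.28 ± 0.97. Single libraries moved these counts, and counts over all genes were not recorded for those runs. Against the Dicer1+/D1693N oviducts the count of 6 was 1 without oviduct 1, 2 or 3, 2 without oviduct 4 or 5 or tumor 2, 3 without tumor 4 and 15 without tumor 3. Cxcl17 kept its call in each of these. Against the Dicer1+/+ oviducts the count of 4 was 1 without oviduct 1, 2 or 3, 0 without oviduct 4 or 5, 2 without tumor 2 and 14 without tumor 3, and Ackr4 was not called without tumor 2 or 3 or any oviduct (adjusted p up to 0.24).

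Between the oviduct genotypes no difference of these genes passed a test. Of the 54, 0 were called higher and 0 lower, against 0.00515% and 0.0154% of all genes (0.0206% with the adjusted p alone), 0 had an unadjusted p under 0.05 in the 3-group model and limma-voom called 0. The median log2 change was 0.19, Dicer1+/D1693N minus Dicer1+/+. The 3-group model uses 1 spread for all groups, tumors included, which widens the SE between oviducts where tumors vary more. For Cxcr6 that SE was 0.64, against 0.17 in the fit of the oviducts alone given below. In 10 genes every Dicer1+/D1693N oviduct lay above every Dicer1+/+ oviduct, against 16.3% of all genes, and in 4 below, against 15.7%. Cxcr6, a receptor of T and NK cells, was at 62.5, 64.4 and 67.7 in the Dicer1+/D1693N oviducts and 15.7 and 15.6 in the Dicer1+/+ oviducts. In a fit of the oviducts alone, chosen after seeing the data, its log2 change was 1.33 ± 0.17 with an adjusted p of 0.129, and 0 of the 54 genes passed, with 10 at an unadjusted p under 0.05, against 14.7% of all genes in that fit. The T and NK cell markers summed to 282.4, 557.7 and 772.2 in the Dicer1+/D1693N oviducts and 180.8 and 230.0 in the Dicer1+/+ oviducts, and its part in the Cxcr6 values was not tested.

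Other genes of the pathway were listed with earlier results of these data known. For scale, tumors against oviducts gave 6.53% higher and 12.1% lower in the whole table. The shares were 22.2% and 22.2% for other ligands and decoys, and 10.8% and 8.11% for receptor signalling. They were 12.9% and 0% for inducers and NF-kB genes, and 25% and 0% for presentation and trimming. Whether any list differed from the whole table was not tested. Among 9 other ligands and decoys 2 were called higher, Ppbp (3.33 ± 1.01, adjusted p = 0.0299), a platelet ELR chemokine, and Mif (1.23 ± 0.29, adjusted p = 0.00952), a cytokine that binds Cxcr2 and Cxcr4. Pitpnm3 (-4.32 ± 0.40), proposed as a chemokine receptor in humans, and Rarres2 (-1.4 ± 0.28), the chemerin precursor, were called lower. Of 37 genes of receptor signalling 4 were higher, among them Rgs16 (3.12 ± 0.39) and Rgs1 (2.64 ± 0.56), which damp G protein signalling, and Prex1 (1.32 ± 0.20), an exchange factor of Rac. The kinase Adrbk2 (-1.36 ± 0.25), the Rac exchange factor Tiam1 and the arrestin Arrb1 were lower. Of 31 inducers of chemokines and NF-kB genes 4 were higher, among them the cytokine Il1a (2.48 ± 0.65) and the NF-kB regulators Nfkbiz (2.05 ± 0.33) and Bcl3 (1.4 ± 0.45), and 0 were lower, with 1 at an unadjusted p under 0.05; limma-voom called 1 higher and 1 lower. Of 16 genes of chemokine presentation and trimming 4 were higher, among them the adhesion molecules Vcam1 (2.22 ± 0.37) and Icam1 (1.23 ± 0.36) and the proteoglycan Sdc1 (1.51 ± 0.32). None was called lower, with 2 lower at an unadjusted p under 0.05 in limma, and limma-voom called 3 higher and 0 lower.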

How the data were processed

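Poly-A RNA was sequenced from 9 libraries, and per the submitters' processing notes FastQC 0.11.5, STAR 2.5.3a and HTSeq were used with GRCm38 (mm10). Per the labels, a miRNeasy kit gave the total RNA and poly-T beads captured the mRNA. The deposited table holds log2 values for 19435 genes, with a floor of 3.427 at 0 reads. The transformation is not given in the sources used here. A negative binomial variance-stabilizing formula, inverted, returned whole reads for 100% of values at a tolerance of 0.05. Neither the strand setting nor the gene models of the counting step are given. In the annotation used here, 10 of the 54 genes share exon bases with another gene, so their reads are uncertain. They are Ackr1, Ackr4, Ccl25, Ccl27a, Ccr9, Cx3cr1, Cxcl10, Cxcl16, Cxcr5 and Xcl1.

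The deposited log2 values were tested with limma 3.58.1 in R 4.3.3 (two-sided, trend in the prior variance, Benjamini-Hochberg over 19435 genes). Tumor against oviduct was a 2-group model, and the comparisons by genotype a 3-group model. The minimum of 10 reads in total per gene was already in the table. Named genes were those called or with a mean of at least 100 normalized counts in a group, and in the other lists up to 3 called genes per direction. Cxcr6, Cxcl1, Ccl2, Cxcr1, Cxcr3, Cxcr5, Ccr7, Ccr9, Cxcl10, Cxcl13, Cxcl15, Ccl17, Ackr1, Ackr2 the further called markers and the genes in the closing observations were named after their values were seen. Genes were matched by symbol to GENCODE M21, 54 of 54. Alternatives were quantile normalization, limma-voom on the recovered reads, log2(normalized count + 1), no prior trend, array weights, a replicate block, no minimum change, a minimum mean of 10 normalized counts and each library left out, besides 2 settings added later. Of the family, 1 gene is counted in the totals and not reported here. The genes and lists were chosen with earlier results of these data known. The code was tested on simulated data.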

Additional observations from a re-analysis of the deposited data

Results flagged for a closer look

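Of 52 groups of libraries checked over the named genes, 7 had a highest or lowest library far from the others. The limit used would flag about 1 of 20 groups of normally distributed values. Counts near 0 are not so distributed, so the 7 cannot be set against that rate. Among the 7 were oviduct values near 0 or a tumor at 0: Ccl20 at 2.0 normalized counts in oviduct 3, Cxcl3 at 2.4 in oviduct 4 and Cxcl2 at 0.0 in tumor 3. Oviduct 3 was the highest oviduct for Ccl8 (326.4) and for Cxcr4 (296.5). Tumor 3 was the highest tumor for Ccl25 at 117.1, within the range of the oviducts. Oviduct 5 was the lowest oviduct for Cxcl12 at 1143.2.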

How the results depend on the processing

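Directions of the named genes held in the alternatives run except for Cx3cr1 (main value 0.25), which was -0.08 with limma-voom, -0.11 without tumor 2, -0.12 without tumor 4 and 1.04 without tumor 1. Of the 13 calls, Cxcl14, Cxcl17 and Cxcr2 held in all alternatives. For tumor against oviduct, 12 genes called higher became 7 with limma-voom (all genes: 1023 higher and 3253 lower). They became 6 without tumors 1 and 4, 22 with array weights and 6 to 19 with 1 library left out, without counts over all genes. The 1 called lower became 2 with log2(normalized count + 1), limma-voom, no minimum change, array weights or without tumors 1 and 4, and 0 to 3 with 1 library left out. With a replicate block on numbers 1 to 4, 6 were called higher (all genes: 1037 higher and 2195 lower); the labels pair nothing, and deviations of same-numbered libraries correlated at 0.134, 0.073, -0.093 and 0.010. Quantile normalization moved the median of all genes to 0.078 against -0.048. Against Dicer1+/D1693N oviducts, 6 called higher became 10 with quantile normalization, 1 with limma-voom and 1 to 15 with 1 library left out, and 0 called lower became 2 with limma-voom or without tumors 1 and 4 and 0 to 2 with 1 library left out. Against Dicer1+/+ oviducts, 4 called higher became 1 with limma-voom, 2 without the prior trend and 0 to 14 with 1 library left out, and 1 called lower became 0 with log2(normalized count + 1), 2 without tumors 1 and 4 and 0 to 2 with 1 library left out. Counts over all genes were not recorded for the alternatives by genotype, and the cause of these shifts was not tested. The comparison of oviduct genotypes gave 0 calls under each alternative run. Totals of 8504993 to 12526078 reads leave genes with a few reads in oviducts (Ccl20, Cxcl3) without a precise fold change.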

Other observations

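A few chemokine genes of lymphocytes varied between oviducts. Cxcl13, the attractant of B cells, was at 19.0, 56.1, 105.5, 13.4 and 59.2 normalized counts in oviducts 1 to 5, and Cxcr5, its receptor, at 51.3, 66.6, 89.6, 39.3 and 51.4. Both were highest in oviduct 3 and lowest in oviduct 4. Cxcr5 shares exon bases with Bcl9l on the other strand, so its reads are uncertain. Ccr6, a receptor of B and T cells, was at 7.5 in oviduct 2, 31.8 in oviduct 3 and at most 1.1 in the other oviducts. The summed B and plasma cell markers were 2138.0 to 10636.4 in the tumors, against 3637.8, 12381.9, 23425.4, 1976.1 and 2183.8 in oviducts 1 to 5. Ighm made up most of the sum in oviducts 1, 2, 3 and 5 (2277.1, 11098.0, 21364.6 and 1350.9). The same held in tumors 1, 2 and 4 (4375.0, 3633.8 and 6581.2). Sdc1, listed above as a proteoglycan, was at 1337.5 to 3599.8 in the tumors and 614.6 to 1419.6 in the oviducts. The order of the oviducts in this sum was not that of Cxcl13, which was higher in oviduct 5 than in oviduct 2. Of 9 such markers 1 was called higher in tumors (Sdc1) and 1 lower (Pax5). These values were chosen after they were seen and have no test.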
